A study of Mus musculus with 50 samples.

Results

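The receptors and ligands of the insulin and insulin-like growth factor (IGF) axis were examined in mammary gland (MG) tumors of p53R270H/+WAPCre mice. These were Insr, Igf1r and Igf2r for the receptors and Igf1 and Igf2 for the ligands, chosen by gene symbol, and they form 5 of the 37701 genes in the deposited table. Each symbol was found on 1 row, and all 5 genes passed the filter on low values that left 16733 genes for testing.

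RNA of 50 tumors was sequenced, 10 tumors from each of 5 treatments. All mice were females that carried a mutant p53 allele, switched on in mammary epithelium by a Cre recombinase under the WAP promoter, and all were 8 weeks old at the start. They received subcutaneous injections every other day of vehicle, insulin, glargine, X10 or IGF1 until a tumor formed. Glargine and X10 are insulin molecules with changed amino acids. The authors tested expression of each compound against vehicle, and the comparisons with regular insulin were added here. The tumor was removed at 1 cm3, 24 h after the last injection, and a piece of it went to RNA isolation. The authors chose tumors with an appearance of epithelial to mesenchymal transition and with a latency close to the median of their group, so the 50 tumors are no random sample of all tumors. They reported a significantly shorter latency in the X10 and IGF1 groups. Age at removal and length of dosing therefore go with treatment and cannot be told apart from it. Vehicle tumors carry the word untreated in their titles. The dose is not stated in the labels.

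The insulin receptor and the IGF1 receptor are related tyrosine kinases that signal through insulin receptor substrates to PI3K, AKT and mTOR. IGF1 and IGF2 bind the IGF1 receptor, and IGF2 also binds the A form of the insulin receptor. The IGF2 receptor has no kinase and takes IGF2 from the cell surface to the lysosome, so it is known as a sink for this ligand. Igf2 and the non-coding gene H19 are neighbouring imprinted genes, and Igf2r is imprinted through the antisense gene Airn. In mammary gland, IGF1 is known as a product of stromal cells.

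Levels are given in RPKM, a read count scaled to gene length and to library size. Being per length, they can be compared between genes only as far as the length used for each gene fits its transcripts. Small ratios between genes depend on this. Library sizes that follow from the steps of the RPKM values ranged from 26.7 M to 51.9 M (median 40.9 M). The lowest Igf2 value therefore still rests on about 78.8 reads. Reads were counted per gene, so that the A and B forms of the insulin receptor are summed. Because whole tumor pieces were sequenced, fewer cells of a type and less RNA per cell cannot be told apart. Collagen and other fibroblast genes were abundant in these pieces, while Krt8, an epithelial keratin, ranged from 2.39 to 1616 RPKM and Epcam from 0.529 to 302.0 RPKM. The library size had Pearson correlations between -0.04 and 0.07 with the 5 genes. A second measure was taken from the same RPKM values, and whether it is technical or a trait of the tumors was not tested. This was the trend of a tumor's values with gene length, the log2 change for each doubling of exon length. The trend ranged from -0.13 to 0.11. It rose with Insr (r = 0.62, rho 0.49, permutation test, adjusted p = 0.0001) and with Igf2r (r = 0.48, rho 0.40, permutation test, adjusted p = 0.0028), and without the 2 tumors farthest from its median the values were 0.51 and 0.33. With Igf1r, Igf1 and Igf2 the correlations were 0.14, 0.04 and 0.22, and none passed, with adjustment over the 10 relations. Relations among the 5 genes that involve Insr or Igf2r are therefore given with their values after this trend was taken out as well.

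The genes lie at separate places in GRCm38. Insr spans chr8:3122061-3279617 on the minus strand, Igf1r chr7:67952827-68233668 on the plus strand, and Igf2r chr17:12682406-12769664 on the minus strand. Igf1 spans chr10:87858265-87937042 on the plus strand and Igf2 chr7:142650766-142666816 on the minus strand. Igf2 is overlapped by the antisense gene Igf2os, chr7:142659693-142670356, and has H19 at chr7:142575529-142578143. The 120 bases before a RefSeq start site (GRCm38.p6) are shown for the IGF receptors and for 1 of the Igf2 starts, chosen because they hold GC boxes and lie outside annotated untranslated regions. Capitals mark GGGCGG, the GC box, on the strand of the gene:

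Igf1r, chr7:67952137-67952256, plus strand: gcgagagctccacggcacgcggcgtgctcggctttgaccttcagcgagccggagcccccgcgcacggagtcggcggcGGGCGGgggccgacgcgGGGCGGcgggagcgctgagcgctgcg
Igf2r, chr17:12769707-12769826, minus strand: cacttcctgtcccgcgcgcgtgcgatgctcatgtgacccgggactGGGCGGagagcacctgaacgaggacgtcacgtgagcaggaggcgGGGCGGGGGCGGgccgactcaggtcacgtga
Igf2, chr7:142657497-142657616, minus strand: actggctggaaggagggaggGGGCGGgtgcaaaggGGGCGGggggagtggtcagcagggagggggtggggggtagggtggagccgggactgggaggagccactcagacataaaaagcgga

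GGGCGG or its complement CCGCCC occurs in the 250 bases before the start of 32.7% of the 32851 promoters of the table, so a match is common. The stretch before Igf1r holds 2 such boxes, that before Igf2r 3, and that before this Igf2 start 2, and since these were chosen for them nothing is read from the counts. Their GC content over 250 bases was 77.6%, 69.2% and 66.0%, beside a median of 52.4% for all promoters. The table holds 3 more Igf2 starts, with 0, 0 and 1 box and a GC content of 50.8%, 47.6% and 68.8%, and 1 Igf1 start with 0 boxes and 52.8%. The files give reads per gene and not per start site, so which Igf2 start was used is not known.

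Igf2r was by far the most abundant receptor transcript. Its level was 248.2 ± 86.3 RPKM (SD, n = 50), with a lowest value of 89.5, a median of 230.7 and a highest value of 504.5 RPKM. In all 50 tumors it lay above Insr, Igf1r and also Igf1. The ratio of Igf2r to Insr had a median of 25.7 and ranged from 14.9 to 87.7.

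Insr, which encodes the insulin receptor, was at 8.47 ± 2.09 RPKM over the 50 tumors. Its lowest value was 4.03, its median 8.41 and its highest value 12.5 RPKM. Igf1r, which encodes the receptor that X10 and IGF1 are known to bind well, was at 6.27 ± 2.44 RPKM, with 3.24 as the lowest, 5.68 as the median and 14.4 RPKM as the highest value. Insr was above Igf1r in 41 of the 50 tumors, and the ratio of Insr to Igf1r had a median of 1.5 (range 0.530 to 2.62). The order Igf2r, Insr, Igf1r therefore held for the medians, but in 9 tumors Insr and Igf1r changed places. The SD of the log2 level was 0.36 for Insr, 0.46 for Igf1r and 0.51 for Igf2r, beside a median of 0.42 over all tested genes, so the receptors varied about as much as a usual gene.

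The ligands varied far more. Igf1 was at 45.2 ± 26.1 RPKM, from 6.58 over a median of 42.4 to 163.8 RPKM, and its log2 SD of 0.89 lay at the 89.5th percentile of tested genes. Igf2 ranged from 0.355 to 4311 RPKM, which is 12143-fold. Its log2 SD was 3.58, and of the 16733 tested genes only Atp2a1, a calcium pump gene of skeletal muscle, had a larger one (3.66). The median of Igf2 was 7.30 RPKM, and the mean of 358.4 RPKM was set by few tumors. The insulin genes themselves were nearly silent. Ins1 reached at most 0.118 RPKM and was listed at 0 in 22 tumors, and Ins2 reached at most 0.295 RPKM and was listed at 0 in 11 tumors.

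**Figure D1:**
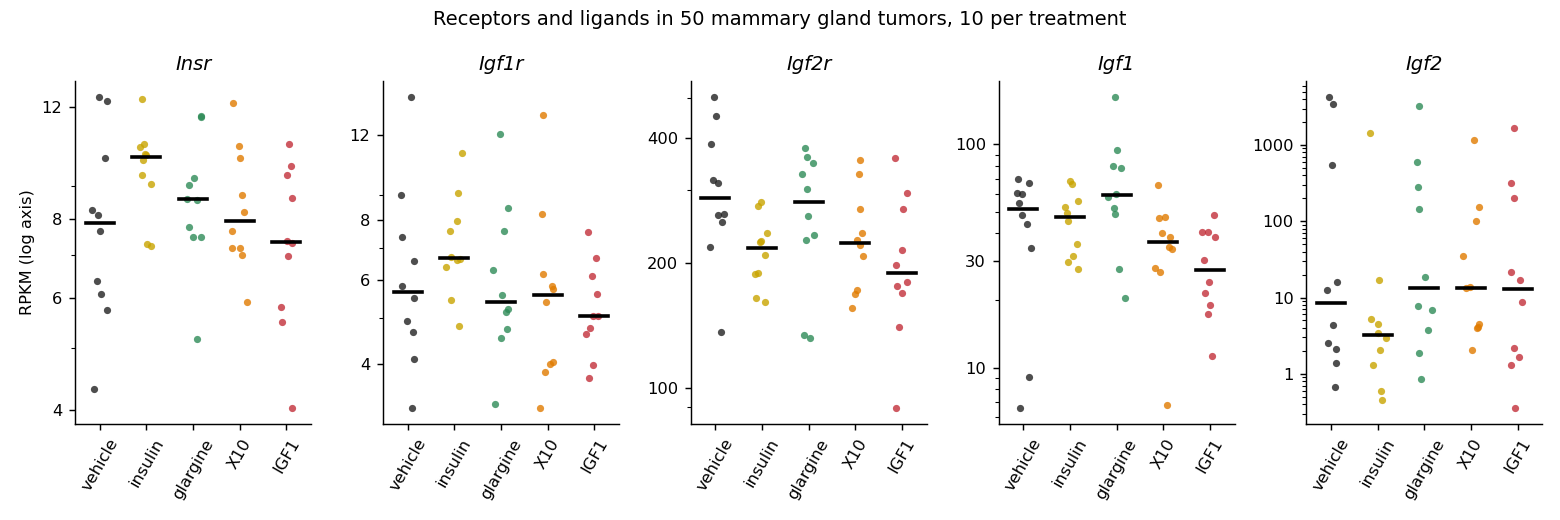
Levels of Insr, Igf1r, Igf2r, Igf1 and Igf2 in RPKM on log axes, each panel with its own range; a point is a tumor, 10 per treatment, and a line is the median of the group. Groups overlap for every gene, and Igf2 spans from 0.355 to 4311 RPKM with high tumors in each of the 5 groups.

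Igf2 was above 100 RPKM in 14 of the 50 tumors and below 10 RPKM in 27. The 14 were 3 vehicle, 1 insulin, 4 glargine, 3 X10 and 3 IGF1 tumors. In these 14 tumors Igf2 was between 101.3 and 4311 RPKM, and in the remaining 36 between 0.355 and 34.6 RPKM, with no tumor between 34.6 and 101.3 RPKM. The level of 100 RPKM was set with the values known and only describes this gap. Igf2 exceeded Igf1 in 16 tumors and exceeded Igf2r in 10. The 6 highest tumors were a vehicle tumor (4311 RPKM), another vehicle tumor (3475 RPKM), a glargine tumor (3228 RPKM), an IGF1 tumor (1685 RPKM), an insulin tumor (1449 RPKM) and an X10 tumor (1180 RPKM), so that each treatment was among them.

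The antisense gene Igf2os moved with Igf2. It was between 0.243 and 58.2 RPKM in the 14 tumors and between 0.032 and 0.665 RPKM in the 36. Over the 50 tumors the correlation of Igf2os with Igf2 was r = 0.87 on the log2 scale (Spearman rho 0.83, permutation test, adjusted p = 0.000825 over 165 relations), and it was 0.86 without the 2 tumors farthest from the median and positive in each of the 5 groups. In the 14 tumors Igf2os amounted to between 0.167% and 1.35% of Igf2, and in the 36, where both were low, to between 0.665% and 45.6%. Whether the reads behind the RPKM values were counted by strand is not given in the sources used here, so reads of Igf2 and of its antisense gene cannot be told apart where the 2 overlap. H19 did not follow Igf2. It ranged from 1.90 to 4843 RPKM in the 14 tumors and from 1.16 to 1897 RPKM in the 36, and its correlation with Igf2 was r = -0.08 (rho -0.01, permutation test, adjusted p = 0.801).

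**Figure D2:**
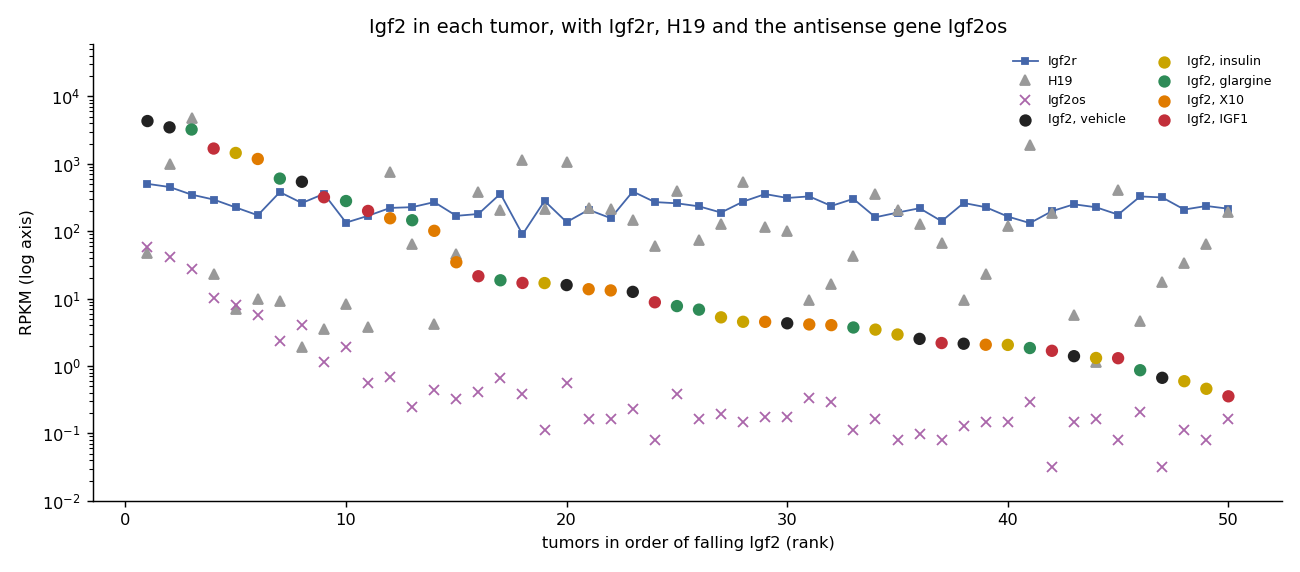
The 50 tumors in order of falling Igf2, with RPKM on a log axis; circles show Igf2 coloured by treatment, squares Igf2r, triangles H19 and crosses the antisense gene Igf2os. Igf2 falls from 4311 to 0.355 RPKM with Igf2os falling beside it in the high tumors, while Igf2r stays between 89.5 and 504.5 RPKM and H19 scatters from 1.16 to 4843 RPKM.

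Whether chronic treatment changed the receptors or ligands was asked by comparing each compound with vehicle, X10 and IGF1 with the other tumors, and each other compound with insulin. None of the 5 genes passed limma at an adjusted p of 0.05 in any of the 8 comparisons or in the F test over the 5 groups. At an unadjusted p under 0.05 it was 1 gene in each of 5 of these tests, where the share of all tested genes at that threshold was 11.1% (insulin versus vehicle), 8.84% (IGF1 versus vehicle), 10.5% (X10 and IGF1 versus the other tumors), 7.3% (IGF1 versus insulin) and 13.1% (F test). Few genes passed at the adjusted threshold. The percentage of all tested genes called there was 0 for insulin versus vehicle, 0 for glargine versus vehicle, 0.0657 for X10 versus vehicle, 0.00598 for IGF1 versus vehicle and 0.155 for X10 and IGF1 versus the other tumors. It was 0 for glargine versus insulin, 0.102 for X10 versus insulin, 0.00598 for IGF1 versus insulin and 0.102 for the F test.

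Igf2r was the receptor with the largest differences from vehicle. The lowest, median and highest values were 136.6, 287.2 and 504.5 RPKM in vehicle tumors, 161.1, 217.5 and 281.6 RPKM in insulin tumors, and 132.01, 280.7 and 380.2 RPKM in glargine tumors. They were 156.1, 224.4 and 355.8 RPKM in X10 tumors and 89.5, 189.2 and 358.7 RPKM in IGF1 tumors. The vehicle group held the highest tumors, and all groups overlapped. The log2 difference from vehicle was -0.58 for IGF1 (SE 0.21, 95% interval -1.001 to -0.15, limma unadjusted p = 0.00894, adjusted p = 0.394) and -0.46 for insulin (SE 0.21, interval -0.88 to -0.03, limma unadjusted p = 0.0346, adjusted p = 0.410). It was -0.37 for X10 (interval -0.79 to 0.06) and -0.20 for glargine (interval -0.62 to 0.23). The mean was below vehicle in all 4 treated groups, which share their vehicle tumors. Of all tested genes, 8.84% had an unadjusted p under 0.05 for IGF1 and 11.1% for insulin. With the length trend as a covariate the log2 differences were -0.58 for IGF1 and -0.56 for insulin, and with it the adjusted p was 0.237 and 0.299.

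Insr showed its highest median in insulin tumors. The lowest, median and highest values were 4.32, 7.88 and 12.5 RPKM in vehicle tumors, 7.24, 9.99 and 12.3 RPKM in insulin tumors, and 5.18, 8.58 and 11.6 RPKM in glargine tumors. X10 tumors had 5.92, 7.92 and 12.2 RPKM, and IGF1 tumors had 4.03, 7.35 and 10.5 RPKM. The insulin tumors lay close together and the vehicle tumors far apart, within the same range. The log2 difference of IGF1 from insulin tumors was -0.37 (SE 0.16, interval -0.68 to -0.05, limma unadjusted p = 0.0227, adjusted p = 0.634), at a share of 7.3% of all tested genes with an unadjusted p under 0.05. With the length trend as a covariate it was -0.29 (limma adjusted p = 0.672), and the trend itself ranged from -0.13 to 0.11 in IGF1 and from -0.02 to 0.06 in insulin tumors. Insulin differed from vehicle by 0.28 (interval -0.03 to 0.60, adjusted p = 0.498).

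Igf1r had its highest median in insulin tumors and its lowest in IGF1 tumors. Its lowest, median and highest values were 3.25, 5.66 and 14.4 RPKM in vehicle tumors, 4.81, 6.67 and 11.0 RPKM in insulin tumors, and 3.31, 5.40 and 12.1 RPKM in glargine tumors. X10 tumors had 3.24, 5.57 and 13.2 RPKM, and IGF1 tumors had 3.74, 5.04 and 7.54 RPKM. In the vehicle, glargine and X10 groups 1 tumor reached over 12 RPKM, and the insulin and IGF1 groups had no such tumor. The log2 difference of IGF1 from vehicle was -0.20 (interval -0.61 to 0.21, adjusted p = 0.870) and from insulin -0.40 (interval -0.81 to 0.01, adjusted p = 0.678). Both intervals lay within 1 log2 unit of 0.

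For Igf1, the ligand made in the tumor and not the injected protein, the X10 and IGF1 groups had the lowest medians. The lowest, median and highest values were 6.58, 51.4 and 69.8 RPKM in vehicle tumors, 27.6, 47.4 and 68.9 RPKM in insulin tumors, and 20.5, 59.3 and 163.8 RPKM in glargine tumors. X10 tumors had 6.82, 36.5 and 65.9 RPKM, and IGF1 tumors had 11.2, 27.3 and 48.0 RPKM. No IGF1 tumor reached the vehicle median, yet 2 vehicle tumors lay below every IGF1 tumor. X10 and IGF1 tumors differed from the other tumors by -0.62 on the log2 scale (SE 0.23, interval -1.09 to -0.15, limma unadjusted p = 0.0113, adjusted p = 0.288), where 10.5% of all tested genes had an unadjusted p under 0.05. The F test over the 5 groups gave an unadjusted p of 0.0377 and an adjusted p of 0.357 for Igf1 by limma, with 13.1% of all tested genes under 0.05. Against vehicle alone, the log2 difference of Igf1 was -0.16 for X10 (interval -0.89 to 0.57, limma unadjusted p = 0.662) and -0.45 for IGF1 (interval -1.18 to 0.28, limma unadjusted p = 0.223). Glargine tumors, which are among the others in the pooled comparison, differed from vehicle by 0.68 (interval -0.06 to 1.41, limma unadjusted p = 0.0692), and insulin tumors by 0.27 (interval -0.47 to 0.997).

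By the median of their summed level, fibroblast markers were also lowest in X10 and IGF1 tumors. The lowest single sum, 2607 RPKM, was in a vehicle tumor. Col1a1 weighed most in the sum, with a median of 8435 RPKM beside 11930 RPKM for the sum over all tumors. The covariate and the exclusions below use the mean log2 level of the list instead. Which cells made these transcripts was not tested. The summed level of the 7 fibroblast genes (Col1a1, Col1a2, Col3a1, Dcn, Lum, Pdgfra and Dpt) had a median of 14204 RPKM in vehicle, 15837 in insulin, 11366 in glargine, 9625 in X10 and 8474 in IGF1 tumors. The order was not the same throughout, since glargine tumors had the highest median of Igf1 and a lower median of this list than vehicle tumors. The summed adipocyte genes had medians of 6.79, 1.64, 20.1, 3.65 and 3.66 RPKM in vehicle, insulin, glargine, X10 and IGF1 tumors, highest in glargine. With the epithelium, adipocyte and muscle levels as covariates, the log2 difference of Igf1 between X10 and IGF1 tumors and the others was -0.57 (limma adjusted p = 0.201). With the level of the fibroblast list as a covariate it was -0.38 (limma adjusted p = 0.384). The vehicle group held the 3 tumors lowest in the list, with 34.4, 9.08 and 6.58 RPKM of Igf1, and without these 3 the difference was -0.83 (adjusted p = 0.04995). Without the 6 lowest tumors of any group it was -0.59 (adjusted p = 0.137). The first of these exclusions takes tumors from 1 group only, and among them are the 2 lowest vehicle values of Igf1.

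Igf2 cannot be compared between groups with any precision. Its lowest, median and highest values were 0.668, 8.45 and 4311 RPKM in vehicle tumors, 0.459, 3.20 and 1449 RPKM in insulin tumors, and 0.866, 13.2 and 3228 RPKM in glargine tumors. X10 tumors had 2.07, 13.5 and 1180 RPKM, and IGF1 tumors had 0.355, 12.9 and 1685 RPKM. Each group contained both high and low tumors. The log2 difference of insulin from vehicle was -2.15, with an interval from -5.29 to 0.99, and those of glargine, X10 and IGF1 were 0.31, -0.21 and -0.54 with an SE of 1.56. Treatment accounted for 5.93% of the variance of log2 Igf2, and for 16.4% in Igf2r, 18.8% in Igf1, 12.3% in Insr and 8.91% in Igf1r, beside a median of 9.29% over all tested genes.

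The modified insulins were also set beside regular insulin for the 5 genes. For glargine the log2 differences from insulin were -0.16 for Insr (interval -0.48 to 0.15), -0.23 for Igf1r (interval -0.64 to 0.18), 0.26 for Igf2r (interval -0.16 to 0.69), 0.41 for Igf1 (interval -0.32 to 1.14) and 2.46 for Igf2 (interval -0.68 to 5.60). For X10 they were -0.19 for Insr (interval -0.51 to 0.12), -0.33 for Igf1r (interval -0.74 to 0.08), 0.09 for Igf2r (interval -0.33 to 0.52), -0.43 for Igf1 (interval -1.16 to 0.31) and 1.95 for Igf2 (interval -1.20 to 5.09). All 10 intervals include 0, and their width does not show that the compounds acted alike.

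**Figure D3:**
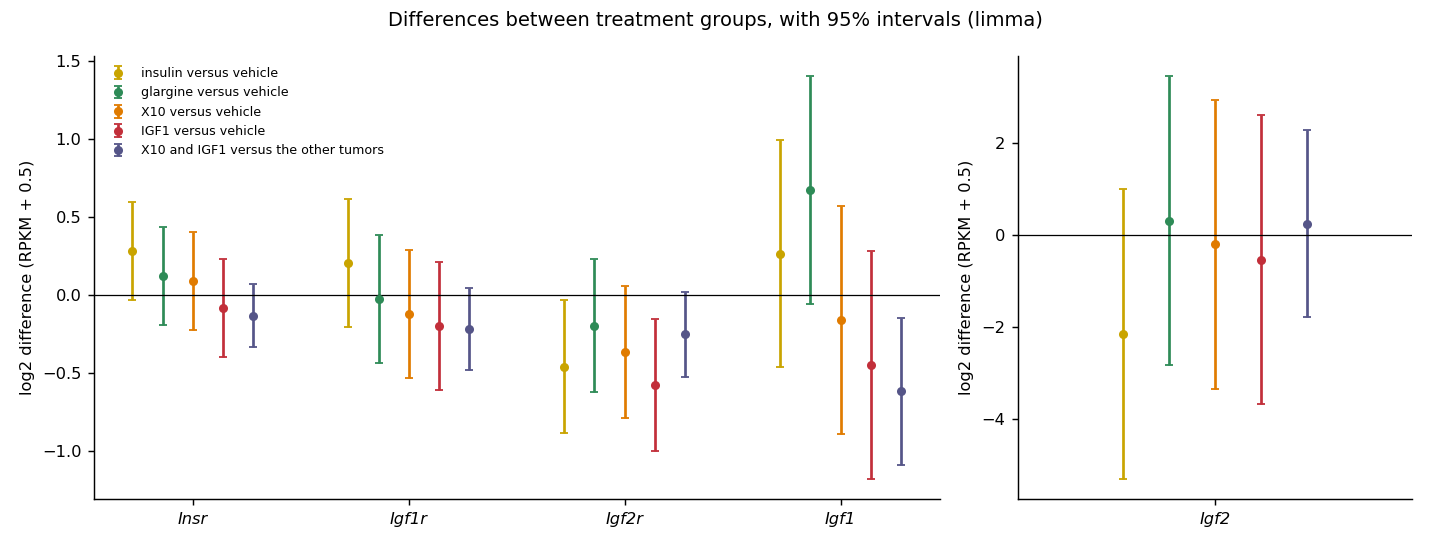
Log2 differences with 95% intervals from limma for the 4 compounds against vehicle and for X10 and IGF1 against the other tumors, with Igf2 on an axis of its own. The intervals of Igf2r for insulin and IGF1, and of Igf1 for X10 and IGF1 against the others, leave out 0 before adjustment, and the Igf2 interval for insulin runs from -5.29 to 0.99.

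The 40 further genes of the axis comprised IGF binding proteins and their proteases, receptor substrates, signaling genes and genes of the imprinted loci. All 40 were found and 33 passed the filter on low values. With limma, 0 of the 33 passed in any comparison after adjustment over all genes. At an unadjusted p under 0.05 insulin had 3, glargine 2, X10 2 and IGF1 6 such genes of the 33 against vehicle, where the share of all tested genes was 11.1%, 6.23%, 11% and 8.84%. X10 and IGF1 had 4 against the other tumors, at a share of 10.5%. Against insulin, glargine had 3, X10 4 and IGF1 1, at shares of 3.96%, 11.3% and 7.3%, and the F test gave 4 at 13.1%. The median log2 difference of the 33 against vehicle was 0.0006 in insulin, 0.02 in glargine, -0.07 in X10 and -0.12 in IGF1 tumors, beside 0.03, 0.02, -0.03 and 0.02 over all tested genes. It was -0.16 for X10 and IGF1 against the other tumors, beside -0.02 over all genes. Against insulin it was 0.10 for glargine, -0.11 for X10 and -0.16 for IGF1, beside -0.01, -0.07 and -0.01. The smallest unadjusted p of the list belonged to Igf2bp1, which encodes an RNA-binding protein named after Igf2 mRNA, for insulin against vehicle, with a log2 difference of -3.09 (SE 0.92, limma unadjusted p = 0.00155, adjusted p = 0.267). For glargine it was -2.62 (SE 0.92, limma unadjusted p = 0.00636, adjusted p = 0.789), for IGF1 -2.08 (limma unadjusted p = 0.0285) and for X10 -0.83 (limma unadjusted p = 0.370). X10 differed from insulin by 2.25 (limma unadjusted p = 0.0180, adjusted p = 0.306). Igf2bp1 ranged from 0.116 to 162.1 RPKM over the tumors. For X10 and IGF1 against the other tumors the smallest belonged to Igfbp5, an IGF binding protein, with a log2 difference of -1.43 (SE 0.44, limma unadjusted p = 0.00234, adjusted p = 0.157). For IGF1 against vehicle it belonged to Irs1, a substrate of both receptors, with -0.90 (SE 0.28, limma unadjusted p = 0.00262, adjusted p = 0.334). The most abundant genes of the list were the binding proteins Igfbp4 (mean 1806 RPKM), Igfbp7 (380.3 RPKM) and Igfbp3 (176.6 RPKM), with the kinase Akt1 (374.1 RPKM), H19 (312.6 RPKM) and the phosphatase Ptpn1 (205.4 RPKM). The mean of Igfbp4 was thus far above that of either ligand.

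Whether receptors and tumor-made ligands moved together was examined over the 50 tumors. Of the 10 pairs of the 5 genes, 1 passed after adjustment over the 10. Insr and Igf1r were correlated with r = 0.43 on the log2 scale (rho 0.46, permutation test, unadjusted p = 0.00143, adjusted p = 0.0143). The correlation was 0.52 without the 2 tumors farthest from the median of Insr, and 0.44 after the length trend was taken out of both genes (adjusted p = 0.0127). Within groups it was 0.12 in vehicle, 0.29 in insulin, 0.66 in glargine, 0.86 in X10 and 0.12 in IGF1 tumors, with 10 tumors each. With the values centred within the groups it was 0.38 (within-group permutation, unadjusted p = 0.0101, adjusted p = 0.0507). Among the correlations of Igf1r with all other tested genes this value was at the 98.7th percentile, and among those of Insr at the 88.5th. Insr thus had many genes that followed it more closely than Igf1r did.

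Insr and Igf2r had r = 0.33 (rho 0.31, permutation test, adjusted p = 0.087), and 0.06 after the length trend was taken out. Igf2r and its ligand Igf2 had r = 0.28 (rho 0.21, permutation test, adjusted p = 0.177), with 0.53 in vehicle and -0.44 in X10 tumors, and 0.20 after the length trend was taken out. Insr had r = 0.19 with Igf1 and -0.03 with Igf2, which were 0.21 and -0.21 after the trend. Igf2r had r = 0.20 with Igf1r and 0.04 with Igf1, which were 0.15 and 0.02 after it. Igf1r and its ligand Igf1 had r = 0.07 (permutation test, adjusted p = 0.925), but r = 0.41 after the epithelium, adipocyte and skeletal muscle levels were taken out of both (permutation test, adjusted p = 0.0143). Igf1r and Igf2 had r = -0.07. The ligands Igf1 and Igf2 were not related either, with r = -0.003 (permutation test, adjusted p = 0.984). Without adjustment for marker levels no ligand passed with a receptor in these 50 tumors.

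The levels of cell type markers were set beside the 5 genes in 50 relations, of which 4 passed. The share of all tested genes that correlate as strongly with these lists was not determined. The count therefore does not set the 5 genes apart from other genes. Igf1 rose with the fibroblast list (r = 0.72, rho 0.72, permutation test, adjusted p = 0.0005), from 0.52 to 0.77 in the 5 groups and 0.80 without the 2 tumors farthest from the median. It also rose with the adipocyte list (Adipoq, Plin1, Cidec, Retn and Lep; r = 0.54, rho 0.53, permutation test, adjusted p = 0.00175), with 0.53 without 2 tumors. The adipocyte genes summed to between 0.193 and 81.6 RPKM. With the skeletal muscle list (Acta1, Ckm, Myh4, Tnnt3 and Mylpf) it had r = 0.40 (rho 0.33, permutation test, adjusted p = 0.0472), and the adjusted p of rho was 0.156. The muscle genes summed to between 2.77 and 4251 RPKM, with a median of 19.1 RPKM.

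Igf1r fell with the T cell list (Cd3e, Cd3g, Cd2 and Cd5). The correlation was r = -0.46 (rho -0.44, permutation test, adjusted p = 0.0143), it was negative in each of the 5 groups, from -0.64 to -0.41, and it was -0.53 without the 2 tumors farthest from the median and -0.44 after the length trend was taken out. The 4 T cell genes summed to between 1.09 and 143.5 RPKM. The vehicle tumor with the highest Igf1r (14.4 RPKM) was also the lowest of all in the fibroblast list. Insr, Igf2r and Igf2 passed with none of the 10 lists, which for Igf2 includes epithelium, fibroblasts and dividing cells. The remaining lists were basal epithelium, milk genes, endothelium and macrophages, and none of them passed with any of the 5 genes.

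**Figure D4:**
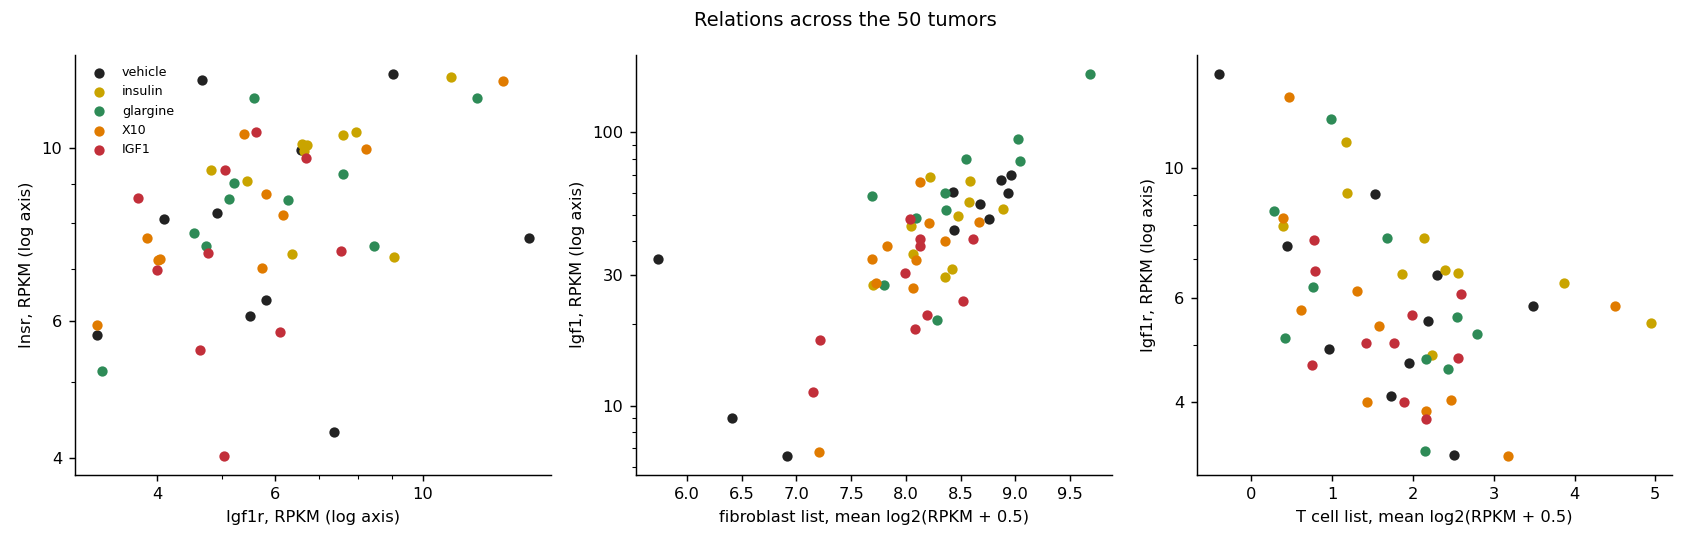
Insr against Igf1r, Igf1 against the mean log2 level of the fibroblast list, and Igf1r against that of the T cell list in the 50 tumors, coloured by treatment, with RPKM on log axes. The correlations on the log2 scale were 0.43, 0.72 and -0.46.

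The 33 tested axis genes gave 165 relations with the 5 genes, of which 24 passed the permutation test after adjustment and 23 were positive. Of the 24, 10 were with Insr, 2 with Igf1r, 5 with Igf2r, 3 with Igf1 and 4 with Igf2. The weakest of the 24 had an absolute r of 0.38. Of all other tested genes, 24.0% were at least this strongly correlated with Insr, 9.28% with Igf1r, 7.52% with Igf2r, 5.05% with Igf1 and 1.98% with Igf2, beside 30.3%, 6.06%, 15.2%, 9.09% and 12.1% of the 33. After the length trend was taken out, the share of all other tested genes at this absolute r was 8.88% for Insr, 11.3% for Igf1r, 1.7% for Igf2r, 6.25% for Igf1 and 1.39% for Igf2, and 4, 2, 1, 3 and 2 of the 33 axis genes reached it. By rho, 11 of the 24 passed and 13 did not. After the length trend was taken out of both genes, 6 of the 24 passed and no other relation did. These 6 were Pik3r1, Irs2 and Foxo1 with Insr, Irs2 with Igf1r, Airn with Igf2r, and Igf2os with Igf2.

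Pik3r1, the regulatory subunit of PI3K, had the highest correlation with Insr (r = 0.67, rho 0.55, permutation test, adjusted p = 0.000825, and 0.54 after the length trend). Irs2, a receptor substrate, rose with Insr (r = 0.52, permutation test, adjusted p = 0.00385, and 0.47 after the trend) and with Igf1r (r = 0.54, permutation test, adjusted p = 0.00289, and 0.53 after the trend). In both cases the correlation was positive in each of the 5 groups. Foxo1, a transcription factor that AKT keeps out of the nucleus, had r = 0.40 with Insr (permutation test, adjusted p = 0.0375, and 0.45 after the trend). By rho it did not pass (0.35, permutation test, adjusted p = 0.0863), and r was 0.28 without the 2 tumors farthest from the median of Foxo1. Pik3ca, the catalytic subunit of PI3K, had r = 0.59 with Insr, which was 0.31 after the trend (adjusted p = 0.165). Akt2 was the only axis gene with a negative passing value, r = -0.48 with Insr (rho -0.39, not passing), which was -0.15 after the trend.

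Airn, the antisense gene of the Igf2r locus at chr17:12741311-12860136, rose with Igf2r (r = 0.52, rho 0.56, permutation test, adjusted p = 0.00385, and 0.47 after the trend). Airn was far lower, between 1.51 and 16.5 RPKM, and it overlaps Igf2r on the opposite strand, so the limit given for Igf2os holds for it too. Igf2bp2 and Igf2bp3, of the same family as Igf2bp1, rose with Igf2 (r = 0.41 and 0.39) and with Igf2r (r = 0.39 and 0.43). After the trend r was 0.37 and 0.36 with Igf2 and 0.29 and 0.38 with Igf2r, and none of these 4 passed. By rho, Igf2bp3 did not pass with Igf2 (0.24, permutation test, adjusted p = 0.33) or with Igf2r (0.26, permutation test, adjusted p = 0.274), and its r with Igf2 was 0.21 without 2 tumors. Igf2bp2 passed by rho with Igf2r (0.44) and not with Igf2 (0.35, permutation test, adjusted p = 0.0855). Irs1 rose with Igf2 (r = 0.43, permutation test, adjusted p = 0.0239), with 0.39 after the trend (adjusted p = 0.0762). With Igf1 the passing genes were Grb14, Stc2 and Igfbp5, with r of 0.41, 0.40 and 0.39, of which only Igfbp5 also passed by rho (0.54). After the trend r was 0.41, 0.42 and 0.39, and none passed (permutation test, adjusted p from 0.063 to 0.0762). With values centred within the groups r was 0.37, 0.36 and 0.26. For Igfbp5 the centred value had an unadjusted p of 0.0973 by within-group permutation.

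The genes whose levels followed each of the 5 most closely over the 50 tumors were ranked by Spearman's rho, as a description. Insr was followed by Abcc9 (rho 0.84), a subunit of potassium channels, C1galt1 (0.77), Rapgef5 (0.76), Atf7 (0.76) and Klhl24 (0.76), and it ran opposite to Mrps15 (-0.74) and Siva1 (-0.71). After the length trend was taken out, rho was 0.73 for Abcc9, between 0.55 and 0.69 for the other highest genes, -0.71 for Mrps15 and -0.52 for Siva1. Igf1r was followed by Fat1 (0.69), an atypical cadherin, Mical3 (0.64), Hipk2 (0.64) and Fam160a2 (0.63), and by a second row that carries the symbol Mical3 (0.62). It ran opposite to Rbm15b (-0.74) and Rps27l (-0.72). For Igf2r the highest were Gm16574 (0.64), Gm23833 (0.63), Trib2 (0.63), Acvr2a (0.60), an activin receptor, and Setd5 (0.59), with Dennd1c and Lilrb4 (both -0.57) at the other end. After the trend the 5 highest had a rho between 0.42 and 0.61, and Dennd1c and Lilrb4 were at -0.41 and -0.56.

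Igf1 was followed by Olfml1 (rho 0.75), the glutamate transporter gene Slc1a3 (0.74), the matrix gene Dpt (0.72), the adhesion gene Selp (0.72) and Cd55 (0.70). Dpt is also part of the fibroblast list. At the other end were Gm16519 and Sez6l2 (both -0.56). For Igf2 only Igf2os was close, with a rho of 0.83, and the next was Tmem200a with 0.55, followed by Senp6 (0.55), Nup62cl (0.55) and Ptpn21 (0.51). The lowest were a second row with the symbol Atf7 (-0.57) and Atox1 (-0.57).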

How the data were processed

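Poly-A selected RNA of 50 tumors was sequenced on the Ion Proton. Per the labels and the methods, reads were aligned to GRCm38 with TopHat2 (2.0.10) and Bowtie2 and gene counts were made with HTSeq-Count (0.6.1, default options). The authors deposited RPKM values, in which library size and gene length are divided out of the counts, and the methods name DEXSeq for that table. DESeq2, which the authors used on counts, was not repeated. All 50 columns were used, 10 per group, with groups taken from the sample titles. The largest Pearson correlation between tumors was 0.982, so none was counted as a duplicate.

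Library sizes were recovered from the steps of the values; at least 96.0% of the low values in a tumor were whole reads. Genes that reached 0.5 RPKM on average were tested with limma 3.58.1 (R 4.3.3) on log2(RPKM + 0.5), all 5 groups in 1 fit with an intensity trend, two-sided, with Benjamini-Hochberg adjustment over 16733 genes. A fold on this scale understates changes of low genes. Correlations were computed on the same scale with two-sided tests of 100000 permutations, of which 1e-05 is the smallest p possible, and adjusted over each family (Python 3.11.15, numpy 2.4.6, scipy 1.17.1, pandas 2.3.3, matplotlib 3.10.9). Both procedures were tested on simulated data. A marker list level is the mean log2(RPKM + 0.5) of its genes, with 5 of 6 macrophage genes found and all other lists complete. Exon lengths and coordinates came from GENCODE M21 (GRCm38), with a length for 98.9% of tested genes, and promoters from RefSeq, which held 7 entries for 4 of the 5 genes.

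Named were the 5 genes, the 5 highest and 2 lowest genes by rho for each, and of the axis list the 6 most abundant and those with the highest correlations; Pik3ca, Akt2, Foxo1, the Igf2bp genes, Irs1, Igfbp5, Stc2, Grb14, Atp2a1 and Krt8 were named after their values were seen. The genes, lists and tests were chosen with earlier results of these data known. Alternatives were other pseudocounts, filters, scalings and covariates. Library size, the length trend, the fibroblast level, the exclusions by it and Spearman's rho for marker lists were added after seeing the data. The titles give each tumor a number of its own, taken as its mouse.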

Additional observations from a re-analysis of the deposited data

Results flagged for a closer look

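Among the 25 combinations of the 5 genes and 5 groups, 2 had a tumor far from the remaining 9 on the log2 scale, by a gap of more than 0.466 of the range. Chance gives about 1 in 20 such groups. The first was Igf1 in X10 95, at 6.82 RPKM with the nearest X10 tumor at 26.9 RPKM, a gap of 0.60 of the range; this tumor was also the lowest X10 tumor in the fibroblast list. The second was Igf2 in insulin 21, at 1449 RPKM with the nearest insulin tumor at 17.0 RPKM, also a gap of 0.60 of the range. No explanation was tested for either.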

How the results depend on the processing

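No paired analysis was possible because the groups share no mouse numbers. Leaving out single replicates was not run, since groups hold 10 tumors. The count of 0 of the 5 genes called held in 123 combinations of a comparison and an alternative; the exception, with 1 gene (Igf1), was X10 and IGF1 versus the other tumors without the 3 vehicle tumors lowest in the fibroblast list, with a log2 difference of -0.83. Over 13 alternatives that difference ran from -0.83 to -0.38, with adjusted p from 0.04995 to 0.423. Single differences changed sign, none of them called: the main values were -0.03 (Igf1r) and 0.31 (Igf2) for glargine, 0.27 (Igf1) for insulin, 0.09 (Insr) and -0.12 (Igf1r) for X10, and -0.20 (Igf1r) and -0.54 (Igf2) for IGF1, all versus vehicle. With marker covariates, glargine versus vehicle became 0.10 for Igf1r and -0.32 for Igf2; with the fibroblast covariate, Igf1r for glargine became 0.067 and Igf1 for insulin -0.012; with the length trend, Insr for X10 became -0.046. Without the 3 vehicle tumors, Igf1 for insulin was -0.37, and Igf1r was 0.13 for glargine and 0.036 for X10; without the 6 tumors the values were -0.37, 0.13 and 0.082, with 0.058 for Igf1r and 0.16 for Igf2 in IGF1 tumors. Of the pairs, Insr and Igf1r fell to 0.38 (permutation, adjusted p = 0.0507) with values centred within groups. Insr and Igf2r passed with quantile normalization (0.39), upper quartile scaling (0.37) and after marker levels (0.35), and Igf1r and Igf1 after marker levels (0.41). Pairs near 0 changed sign: Igf2r and Igf1 to -0.042 by rho, -0.033 without 2 tumors and -0.045 when centred, Igf1 and Igf2 to 0.0068 with a pseudocount of 0.1 and 0.0084 with upper quartile scaling, Insr and Igf2 to 0.030 when centred and 0.003 with upper quartile scaling, Igf1r and Igf1 to -0.012 when centred, and Igf1r and Igf2 to 0.038 after marker levels. Igf1 and the skeletal muscle list did not pass by rho (0.33), when centred (0.42), without 2 tumors (0.31) or with a pseudocount of 0.1 (0.38). The fibroblast, adipocyte and T cell relations passed in all alternatives run. The cause of these changes was not tested.

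Counts over all genes were small and moved by more than 1.5 times in 45 combinations and by less in 79. X10 and IGF1 versus the other tumors gave 26 genes, 51 with upper quartile scaling, 137 with the length trend and 0 without the 6 tumors. X10 versus vehicle gave 11 genes, 24 with no filter and 1 with library size as a covariate, X10 versus insulin gave 17, 68 with the length trend and 5 with library size, and the F test gave 17, 44 with the length trend and 0 with no filter.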
